A study of Mus musculus with 4 samples.

Results

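Epithelial cells line ducts, glands and skin, and 10 genes of their programme were measured here in subcutaneous white fat of mice: St14, Spint2, Cldn3, Grhl1, Tfap2a, Trp63, Esrp1, Rab25, Mir200b and Mir200a. They were found by their gene names in a table of open chromatin regions that linked regions to 11993 genes, and all 10 were present. They carried 12 of the 12477 merged regions of the series and 9 separate measurements, because Mir200b and Mir200a share a region. Open chromatin was measured by ATAC-seq, in which a transposase cuts and tags accessible DNA, in nuclei from frozen fat. The groups were wild-type males (2 libraries) and wild-type females (2 libraries), with no treatment named. The labels name no strain, age or animal. The p-values below therefore measure the spread between these libraries, which may be technical.

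In epithelia, the membrane protease matriptase, encoded by St14, is held in check by Kunitz-type inhibitors such as the product of Spint2, and claudins seal the tight junctions between cells. Grainyhead-like factors, AP-2 factors and p63 switch epithelial genes on, Esrp1 directs epithelial splicing, and microRNAs of the miR-200 family hold down the repressors Zeb1 and Zeb2. In mice the ducts of the mammary gland grow within subcutaneous fat pads of females, and skin lies next to the same fat. Fat cells themselves are mesenchymal. The regions described below are those of bulk tissue, in which fewer cells of a type and less open DNA per cell cannot be told apart.

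The mature 3p strands of the miR-200 cluster on chromosome 4 are shown because a single open region stands for the whole cluster while the strands belong to different seed families. Capitals mark the seed, bases 2 to 8 counted from the 5′ end, and the sequences are those of RefSeq for GRCm38.p6.
miR-200b-3p: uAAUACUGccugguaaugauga
miR-200a-3p: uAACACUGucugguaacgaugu
miR-429-3p: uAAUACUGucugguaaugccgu
In the seed, miR-200a-3p differs from miR-200b-3p by U4C. The seed AAUACUG is shared by 3 mature strands, miR-200b-3p, miR-429-3p and miR-200c-3p, and the seed AACACUG by 2, miR-200a-3p and miR-141-3p. The last named of each seed comes from the family's other cluster, Mir200c and Mir141 on chromosome 6.

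Only 2 of the 10 genes, Cldn3 and Grhl1, had an open region within 1000 bp of their start, against 69.7% of all genes. The parts of these regions that lie before the gene's start are shown, on the plus strand, because they are the start-site DNA that was open. The RefSeq promoter table of GRCm38.p6 had entries for 5 of the genes.
Cldn3, chr5:134986087-134986207: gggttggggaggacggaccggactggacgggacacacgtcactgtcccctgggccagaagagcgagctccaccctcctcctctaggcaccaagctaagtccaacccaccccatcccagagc
Grhl1, chr12:24572092-24572286: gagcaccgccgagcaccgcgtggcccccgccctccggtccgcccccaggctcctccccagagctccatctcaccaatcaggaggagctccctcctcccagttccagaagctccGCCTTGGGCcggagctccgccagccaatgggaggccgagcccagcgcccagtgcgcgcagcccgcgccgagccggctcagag
Capitals mark a match to the AP-2 motif GCCNNNGGC. Both strands were searched for this motif, for the grainyhead-like motif AACCNGTT and for the E-box CACCTG. The Grhl1 stretch held the AP-2 match and neither of the others, and the Cldn3 stretch held none of the 3. The 300 bases around the start of Cldn3, of which the stretch is a part, held 1 AP-2 match and 1 E-box, and those around this start of Grhl1 held 1 AP-2 match. Among 32851 promoters of 300 bases, 16.6% held the AP-2 motif, 2.09% the grainyhead-like motif and 20.2% the E-box. The GC content was 65.3% in the Cldn3 stretch and 73.8% in the Grhl1 stretch.

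Heights are scaled numbers of overlapping tags at a region, averaged over the regions of a gene, and all 4 libraries have a value whether or not a peak was called there. Peaks were fewer in the male libraries, and heights were lower there on average. Intervals numbered 5484 and 4049 in the males, against 10238 and 8022 in the females, and the mean height per gene was 25.3 and 16.8 in the males, against 40.9 and 32.5 in the females. The median log2 difference of all genes, male minus female, was -0.63, so each difference is also given relative to that median. The adipocyte markers measured, 6 of 10, summed to 122.6 and 82.6 in the males and to 238.5 and 210.4 in the females. The endothelial markers, 3 of 5 measured, summed to 37.5 and 28.3 in the males and to 72 and 57.1 in the females, and no measured marker was at 0. The summed macrophage, lymphocyte and skeletal muscle markers, of which 2, 2 and 1 of 5 were measured, were likewise smaller in each male than in either female. None of the 6 defining epithelial markers, Epcam, Cdh1, Krt8, Krt18, Krt14 and Krt5, was linked to a region called in any library. Heights exist only for genes with such a link, and these are the genes called measured here. The sexes could thus not be compared by these markers, and no epithelial cells were shown by them. Epithelial names the genes, not a cell type found in the tissue. The part of cell makeup in the results was not tested.

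St14 and Spint2, the protease and its inhibitor, were the genes with the lowest male heights relative to the females. St14 (GeneID 19143, chromosome 9, minus strand) had heights of 2.12 and 1.47 in the male libraries and of 22 and 15.6 in the female libraries. Both males lay far below both females, and the male values amounted to 3 and 2 overlapping tags before scaling, against 22 and 19 in the females. The means were 1.80 ± 0.461 in males and 18.8 ± 4.51 in females (SD, n = 2 each), and the female mean was 10.5 times the male mean, a ratio reached or exceeded by 19 of all genes, St14 included, where the median gene had 1.78. In limma with Benjamini-Hochberg adjustment over 11993 genes, St14 fell by 1.36 on the log2 scale (SE 0.335, adjusted p = 0.0283), which was -0.73 relative to all genes. Its region, chr9:31120762-31120854 in mm10, is 93 bp wide and lies within the gene, 10967 bp past its start. It was called as a peak in female 1 only, is linked to no other gene, and was the only region within 50000 bp of the gene. St14 thus entered through a female peak alone, so its lower male height is partly fixed by how regions were found. Its ratio and test against all genes are therefore not a like comparison.

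Spint2 (GeneID 20733, chromosome 7, minus strand) had heights of 2.83 and 3.67 in the males and of 29 and 17.3 in the females. The sexes again did not overlap, and the male values were 4 and 5 tags before scaling. The means were 3.25 ± 0.597 in males and 23.1 ± 8.30 in females (SD, n = 2 each). Spint2 fell by 1.37 on the log2 scale in males (SE 0.342, adjusted p = 0.0283 in limma), which was -0.74 relative to all genes. The region, chr7:29248418-29248508, is 91 bp wide, lies beyond the end of Spint2 at 33497 bp past its start, and was called in female 1 only. It is 13 bp before the start of 2200002D01Rik, a gene of unknown role, and is linked also to Yif1b, whose product acts in membrane traffic, so the height cannot be assigned to Spint2 alone. The next region, at the start of Yif1b (chr7:29238111-29238490), had heights of 30.4 and 18.4 in males and of 60 and 42.7 in females. No peak was called there in male 2, whose height was obtained by subtraction from a gene's mean. The female mean was 2.11 times the male mean there, against 7.12 times at the Spint2 region. The Spint2 region was called in female 1 only, so its ratio is partly fixed by how regions were found.

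**Figure D1:**
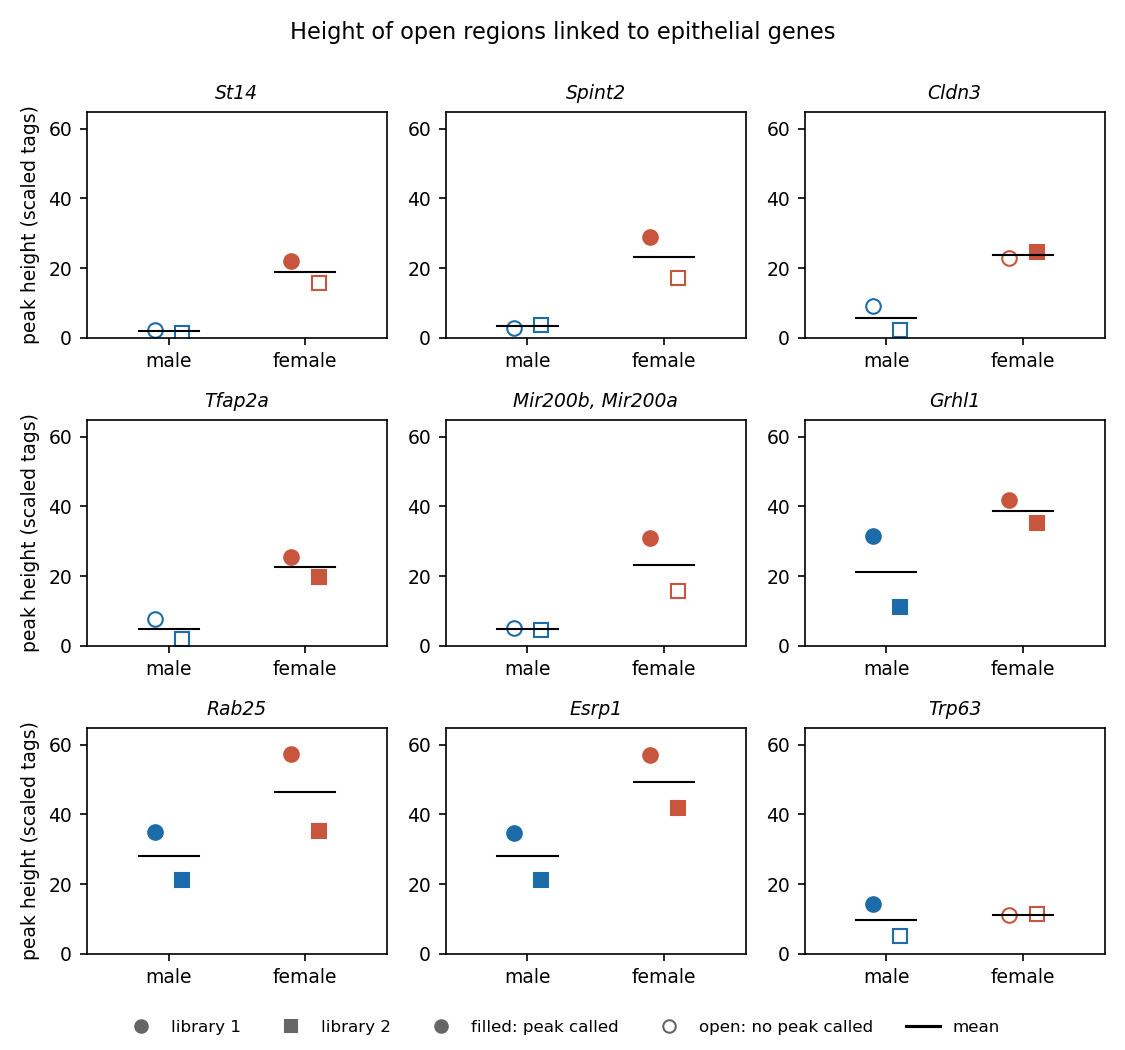
Peak height (scaled tags) of the regions linked to each gene in the 2 male and 2 female libraries; circles are library 1, squares library 2, filled points have a called peak linked to the gene and open points have none, and lines are means. St14 and Spint2 lie between 1.47 and 3.67 in males and between 15.6 and 29 in females, whereas the sexes overlap for Trp63.

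Cldn3 encodes a claudin of tight junctions in glandular epithelia, and its open region lay at its own promoter. The heights were 9.19 and 2.20 in the males and 23 and 24.7 in the females (GeneID 12739, chromosome 5, plus strand). Both males were below both females, but male 1 stood at 13 tags and male 2 at 3 before scaling. The means were 5.70 ± 4.94 in males and 23.8 ± 1.17 in females (SD, n = 2 each). The log2 difference was -1.20, or -0.57 relative to all genes, and did not pass the test (adjusted p = 0.0596 in limma). The region is 121 bp wide, 54 bp before the start of Cldn3, and was called in female 2 only, although the height in female 1 was close to that in female 2. It is linked also to Wbscr25, 15190 bp past the start of that gene.

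Of the 3 transcription factor genes, none passed the test, and the sexes were apart for Tfap2a and Grhl1 and overlapped for Trp63. Tfap2a encodes AP-2 alpha, a factor of ectoderm and epidermis (GeneID 21418, chromosome 13, minus strand), and its mean over 2 regions was 7.78 and 1.84 in the males, against 25.5 and 19.7 in the females. Both males were below both females. The means were 4.81 ± 4.20 in males and 22.6 ± 4.08 in females (SD, n = 2 each), and the log2 difference of -1.22 (SE 0.344) missed the threshold (adjusted p = 0.0552 in limma). Both regions lie within the gene. The first, chr13:40723098-40723195, at 10687 bp past the start, was called in female 1 only and was 29 high in female 1 and 23 in female 2. The second, chr13:40722832-40722968, at 10975 bp, was called in female 2 only and was 22 high in female 1 and 16.4 in female 2. Each region thus had height in both females while being called in a single one. The heights in the uncalled female, 23 at the first and 22 at the second, were obtained by subtraction from the gene's mean. In the males, where neither was called, only the mean of the pair is known.

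Grhl1 encodes a grainyhead-like factor of epidermal differentiation (GeneID 195733, chromosome 12, plus strand), and its mean height was 31.5 and 11 in the males and 42 and 35.3 in the females. The sexes did not overlap, but male 1 was nearer to the females than to male 2. The means were 21.2 ± 14.5 in males and 38.7 ± 4.70 in females (SD, n = 2 each), and the log2 difference of -0.74 (SE 0.391) did not pass the test (adjusted p = 0.168 in limma). The start-site region, chr12:24572092-24572450, was called in all 4 libraries. It was 47.4 high in male 1 and 11.7 in male 2, against 52 in female 1 and 41.9 in female 2. At the start site, then, male 1 stood among the females and male 2 stood alone. A second region within the gene, chr12:24593310-24593387, 21089 bp past the start, was called in female 1 only and was 15.6 and 10.3 high in the males, against 32 and 28.8 in the females. Here both males were below both females. These heights, other than that of female 1, were obtained by subtraction from the gene's mean. Relative to all genes, the difference of Grhl1 was -0.11 with all libraries, 0.16 without male 2 and -0.38 without male 1, so its side of the all-gene median turned with the male library used.

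Trp63 encodes p63, the factor of basal epithelial cells (GeneID 22061, chromosome 16, plus strand), and was the gene of the 10 with no separation of the sexes. Its height was 14.1 and 5.14 in the males and 11 and 11.5 in the females. The female values lay between the male values. The log2 difference was -0.16 and did not pass the test (adjusted p = 0.681 in limma), and relative to all genes it was 0.47. The region, chr16:25805071-25805167, is 97 bp wide, lies within the gene 121355 bp past its start, and was called in male 1 only. With centred libraries the difference of Trp63 was 0.45, with quantile normalization 0.37 and without male 2 0.19, so its sign turned under these settings.

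Esrp1 and Rab25 had regions that lie at the starts of neighbouring genes. Esrp1, the epithelial splicing regulator (GeneID 207920, chromosome 4, minus strand), had heights of 34.6 and 21.3 in the males and of 57 and 41.9 in the females. Its sexes did not overlap. The log2 difference of -0.67 equalled the all-gene shift closely, at -0.045 relative to it, and did not pass the test (adjusted p = 0.20 in limma). The region, chr4:11321906-11322315, was called in all 4 libraries. It is 77 bp before the start of Dpy19l4, which encodes a membrane glycosyltransferase-like protein, and 64575 to 64863 bp past the start of Esrp1, beyond its end.

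Rab25 encodes a small GTPase of recycling endosomes in epithelia (GeneID 53868, chromosome 3, minus strand), and its mean height was 35.0 and 21.3 in the males and 57.5 and 35.3 in the females. Male 1 and female 2 were nearly level. The log2 difference was -0.57 (adjusted p = 0.251 in limma), or 0.056 relative to all genes, and with centred libraries and quantile normalization it was 0.045 and 0.083, so the sign turned. The first region, chr3:88552829-88553099, was called in all 4 libraries and lies 33 bp before the start of Lamtor2, a gene of late endosomes and lysosomes. The second, chr3:88553583-88553742, was called in female 1 only and lies 84 bp before the start of Ubqln4, a gene of protein turnover. Both are linked to these 2 genes as well, and they lie 4681 and 5353 bp before the start of Rab25 itself. The height of the second was 27.6 and 19.1 in the males and 48 and 23 in the females, so that male 1 exceeded female 2 there. These heights of the second region, other than that of female 1, were obtained by subtraction from the gene's mean.

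The miR-200 cluster had a single linked region, before all 3 of its microRNA genes. Mir200b (GeneID 387243) and Mir200a (GeneID 387242), on the minus strand of chromosome 4, shared heights of 4.95 and 4.41 in the males and of 31 and 15.6 in the females. Both males were below both females, at 7 and 6 tags before scaling, against 31 and 19. The means were 4.68 ± 0.383 in males and 23.3 ± 10.9 in females (SD, n = 2 each), a female mean 4.98 times the male mean. The log2 difference of -1.20 (SE 0.345), or -0.57 relative to all genes, did not pass the test (adjusted p = 0.0596 in limma). The region, chr4:156059817-156059984, is 168 bp wide, was called in female 1 only and lies 4090 bp before Mir200b and 4855 bp before Mir200a. It is linked also to Mir429, at 5853 bp, and to Ttll10, a gene for a tubulin-modifying enzyme, at 9023 bp. Mir200c and Mir141, which carry the same seeds on chromosome 6, had 31.8 and 22 in the males and 45 and 45.2 in the females, and were at 0.024 relative to all genes. Their region is shared with Phb2 and Ptpn6, and the difference between the clusters was not tested.

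**Figure D2:**
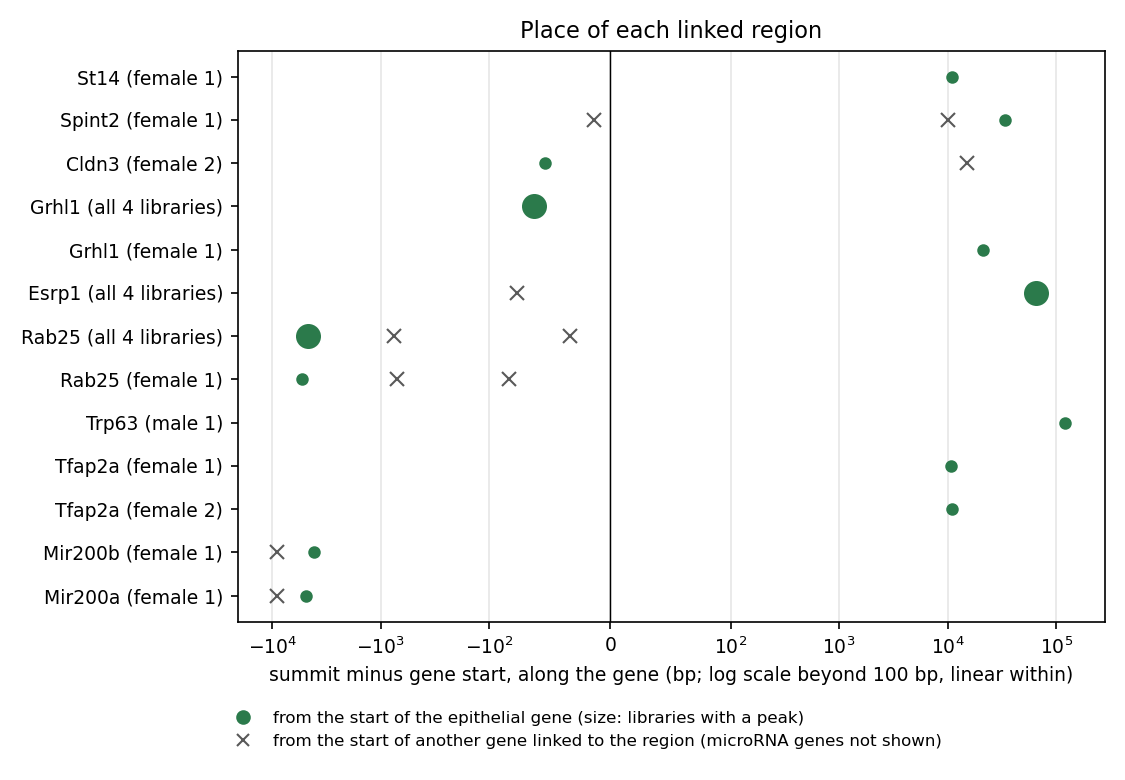
Place of each linked region, as the distance in bp of its summit from the start of the epithelial gene (green, with size for the number of libraries with a peak) and of other genes linked to it (crosses), on an axis that is logarithmic beyond 100 bp; the libraries with a peak are named at the left. The Cldn3 region and a Grhl1 region lie close to the gene's own start, while the Spint2, Esrp1 and Rab25 regions lie closer to the start of another gene.

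The linked regions of the 10 genes were mostly narrow and called in a single library. Their median width was 129 bp, against 195 bp over all merged regions. A peak in 1 library alone was found for 9 of the 12 regions, against 40.7% of all regions, and a peak in all 4 libraries for 3, against 19.9%. Of the 9, 6 were called in female 1, 2 in female 2 and 1 in male 1. Counted by gene, 6 of 10 had no linked peak in a male, against 27.9% of all genes. This count and the next take Mir200b and Mir200a apart, although they share a region. Female 1 alone supplied the peaks of 4 genes (11.8% of all genes) and 3 genes had peaks in all 4 libraries (35.9% of all genes). Another gene was linked to 6 of the 12 regions.

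Of the 10 genes, 2 passed the test as lower in males, St14 and Spint2, against 0.592% of all genes, and 0 as higher, against 0% of all genes. At an unadjusted p under 0.05, limma found 3768 of all genes lower and 1 higher in males. Both calls were lost with libraries centred on their medians or quantile normalized, and without male 2, settings in which 0 genes of the whole table passed, and without female 1, where 19 genes passed. Without male 1, 9 of the 10 passed, as did 6419 genes of the whole table. The median log2 difference of the 10 genes was -1.20, against -0.63 for all genes. Both males lay below both females for 9 of the 10, against 76.4% of all genes, so that count alone sets the genes little apart. After the libraries were centred on their medians, 6 of the 10 still had both males below both females, against 21.7% of all genes, and with quantile normalization 6, against 20.6%. These 6 were St14, Spint2, Cldn3, Tfap2a, Mir200b and Mir200a, the genes with no peak called in a male. Mir200b and Mir200a share a value. The 6 entered through peaks called in females alone, so lower male heights are partly fixed by how regions were found. Only 27.9% of all genes had no linked peak in a male, so the shares of all genes are not a like comparison. With 2 libraries against 2, an exact two-sided permutation test of a single gene cannot give a p below 0.333.

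Ranks within a library do not depend on its scaling. In male 1 and male 2, 0.25% and 0.183% of genes were lower than St14, against 11.5% in female 1 and 8.58% in female 2. St14 was thus close to the bottom of both male libraries and among the lower genes of the female libraries. For Cldn3 the shares were 4.49% and 0.709% in the males and 13.2% and 32.0% in the females, and for Tfap2a they were 2.95% and 0.667% in the males and 18.6% and 17.5% in the females. Those of Spint2 were 0.40% and 1.88% in the males and 25.9% and 11.7% in the females. For the miR-200 cluster, 1.18% and 2.78% of genes were lower in the males, against 31.0% and 8.58% in the females. In each of these genes the males ranked below the females, but these genes entered the table through peaks called in females and in no male, so a lower male rank is partly fixed by how regions were found. Trp63, whose peak was called in male 1, ranked the other way, with 13.6% and 4.27% of genes lower in the males and 1.14% and 3.34% in the females. Rab25 had 81.9% and 75.7% of genes lower in the males and 83.0% and 64.0% in the females, so the sexes overlapped. Esrp1 held a like rank in every library, with 80.8% and 75.7% of genes lower in the males and 82.1% and 76.8% in the females. Grhl1 ranked at 74.6% in male 1 but at 27.8% in male 2, against 58.4% and 64.0% in the females.

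**Figure D3:**
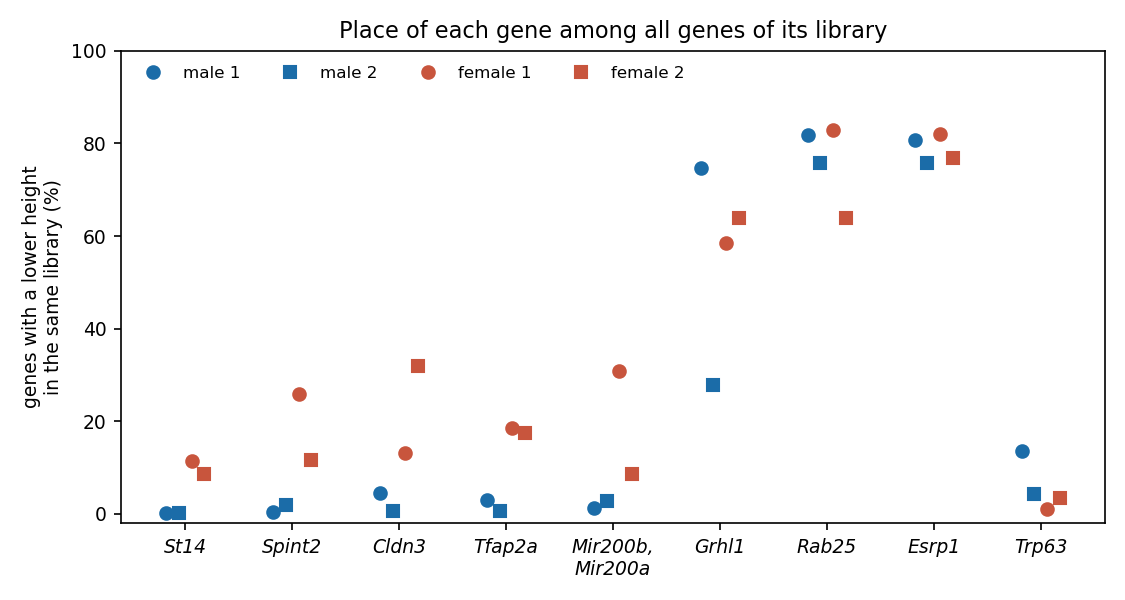
Share of genes (%) with a lower height in the same library, for each gene in the 2 male (blue) and 2 female (red) libraries. From St14 to the miR-200 cluster the males lie between 0.183% and 4.49% and the females between 8.58% and 32.0%, while Esrp1 lies between 75.7% and 82.1% in all 4.

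A region called in female 1 alone had to be high there and to have no peak in female 2 or a male. All 4 libraries thus entered the choice of this class, so its heights give no independent view of the sexes. The genes were also chosen with earlier results known. They are set here only against regions chosen in the same way. Genes with a single region called in female 1 alone supplied 1012 regions, with median heights of 14.8 and 8.08 in the males and of 27 and 18.1 in the females. In 694 of them, or 68.6%, female 2 exceeded both males, as it did at St14, Spint2 and the miR-200 cluster. The male mean was as low as that of St14, or lower, in 10 of the 1012 (0.988%), as low as that of Spint2 in 27 (2.67%) and as low as that of the miR-200 cluster in 62 (6.13%). The height in female 2 was ordinary for such regions, since 673 of the 1012 (66.5%) were at least as high there as St14 and the miR-200 cluster, and 569 (56.2%) as high as Spint2. Within that class, the male heights of these genes were among the lowest and their heights in female 2 were near the middle.

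**Figure D4:**
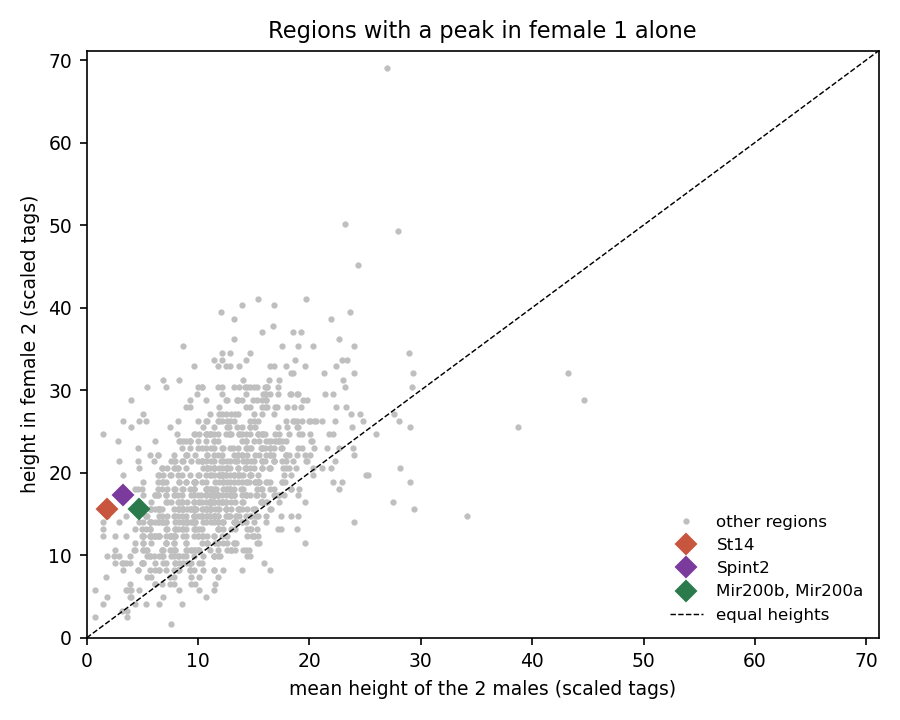
Height in female 2 (vertical, scaled tags) against the mean height of the 2 males (horizontal, scaled tags) for 1012 regions with a peak in female 1 alone; grey points are regions and diamonds the St14, Spint2 and miR-200 regions. The diamonds lie at male means of 1.80, 3.25 and 4.68, at the left edge of the points and above the line of equal heights.

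Other genes of epithelium, skin and mesenchyme were read beside the 10. Of 39 further epithelial genes, 11 were measured, 1 passed as lower in males, against 0.592% of all genes, and 0 as higher. Among the 11, Mir429 repeats the region and heights of Mir200b and Mir200a, and Mir200c and Mir141 share a region. Counts of this list can therefore repeat a value. The gene that passed was Erbb3, a receptor tyrosine kinase, with 5.66 and 3.67 in the males and 22 and 26.3 in the females (log2 difference -1.28, adjusted p = 0.0436 in limma). Erbb3 was called in female 1 only, so its lower male height is partly fixed by how regions were found. The median of the 11 was -0.17 relative to all genes, with a range of -0.65 to 0.45. The highest values were those of Ap1m2, an adaptor gene of epithelial sorting, at 0.45, and Muc1, a mucin gene whose sexes overlapped, at 0.18. Rab11fip1, which encodes a partner of Rab25 on recycling endosomes, had 0.707 and 3.67 in the males and 8 and 28.8 in the females (adjusted p = 0.0524 in limma), with female 1 well below female 2. It was called in female 2 only, so the same limit holds. Gata3, a luminal transcription factor, had 22.6 and 10.3 in the males and 42 and 32.1 in the females. It did not pass, and it lay nearer to the all-gene shift than Erbb3 did.

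Of 25 basal and myoepithelial genes, 9 were measured, Trp63 among them, and 0 passed in either direction. Their median was -0.30 relative to all genes, and both males lay below both females in 7 of the 9, close to the 76.4% of all genes. The desmosome gene Dsp had 10.6 and 4.41 in the males and 30.0 and 26.3 in the females, at a region 53570 bp past its start that is linked also to Snrnp48. Jup, the gene of plakoglobin, had 38.2 and 19.1 in the males and 79 and 57.5 in the females, and its region lies 98 bp before its own start. Itga6, which encodes an integrin of hemidesmosomes, had 7.78 and 2.94 in the males and 18 and 26.3 in the females, 11 bp before its start. Pkp3, another desmosome gene, had 29.7 and 8.08 in the males and 48 and 43.6 in the females. None of these 4, named for the smallest p of their list, passed the test. On the other side of the all-gene median, Cnn1, a smooth muscle gene whose sexes overlapped, was at 0.12 and Trp63 at 0.47. Of 20 skin and hair follicle genes, 6 were measured and 0 passed, with a median of -0.28 relative to all genes. Ppl, the gene of periplakin, had 7.07 and 5.87 in the males and 22 and 27.1 in the females, and Serpinb5, the gene of maspin, had 2.83 and 0.734 in the males and 17 and 7.40 in the females. Evpl, the gene of envoplakin, had 8.48 and 6.12 in the males and 20.3 and 19.5 in the females, and Cd34, a marker of follicle stem cells and also of blood vessels, had 14.1 and 7.34 in the males and 24 and 29.6 in the females. None of the 4, named for the smallest p of their list, passed. No peak was called in a male for 7 of the 9 basal and 4 of the 6 skin genes, against 27.9% of all genes. Lower male heights of such genes, and the medians of these lists, are thus partly fixed by how regions were found.

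Milk and luminal secretory genes had a median close to the all-gene shift. Of 19, 6 were measured, 0 passed, and the median was 0.003 relative to all genes. Pgr, the progesterone receptor gene, had 4.95 and 4.77 in the males and 14.5 and 14.8 in the females. Stat5a, which mediates prolactin signals, had 29 and 30.1 in the males and 51 and 53.4 in the females. Kit, a receptor of luminal progenitors, had 5.30 and 3.67 in the males and 15 and 8.22 in the females, and Xdh, an enzyme needed for milk fat secretion, had 18.7 and 11.4 in the males and 27.5 and 28.8 in the females. The 4 genes had no overlap of the sexes, as most genes had. No peak was called in a male for 3 of the 6, against 27.9% of all genes.

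Mesenchymal counterparts of the miR-200 family lay on both sides of the all-gene shift. Of 15, 7 were measured and 0 passed, and the median was -0.0088 relative to all genes, with a range of -0.59 to 0.30. Zeb1 and Zeb2 were linked to no region called in any library, so they had no heights. Snai1, a repressor of E-cadherin, had 22.6 and 13.2 in the males and 52 and 32.9 in the females, and Tcf4, which encodes an E protein, had 15.8 and 14 in the males and 38.3 and 24.4 in the females. Tgfbr2, a receptor of transforming growth factor beta, had 31.1 and 11 in the males and 46 and 26.3 in the females, so male 1 exceeded female 2. Rbms3, which encodes an RNA-binding protein, was the member farthest from the all-gene shift, at -0.59, with 6.72 and 5.51 in the males and 28 and 24.3 in the females. That value was close to those of Cldn3 and the miR-200 cluster, although the gene belongs to the mesenchymal list. Rbms3 likewise had no peak called in a male, so its lower male heights are partly fixed by how regions were found.

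**Figure D5:**
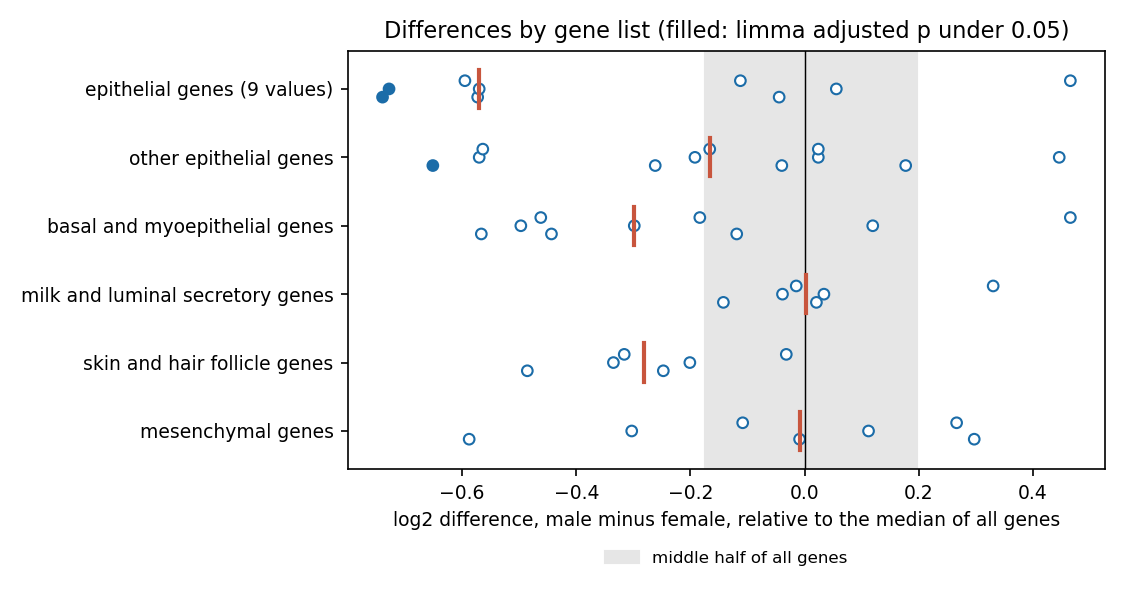
Log2 difference in height, male minus female, relative to the median of all genes (horizontal), for the epithelial genes and 5 lists of further genes; each circle is a gene or, in the top row, a separate value, filled where limma's adjusted p was under 0.05, red lines are medians and the grey band runs from -0.17 to 0.20, the quartiles of all genes. St14 and Spint2, at -0.73 and -0.74, and Erbb3, at -0.65, are the filled points. Mir429, among the other epithelial genes, and Trp63, among the basal genes, repeat values of the top row.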

How the data were processed

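Ground, frozen subcutaneous fat gave 100000 nuclei per assay, which were tagged with Tn5 transposase and amplified in 10 cycles of PCR, per the labels' protocols. The submitters' processing notes name BWA, MACS2 2.1.0 and the build mm10; read filters, duplicate removal and a Tn5 shift are not stated there. Each library has its own interval and summit tracks beside a merged track, per the file headers.

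The deposited signal is a peak's tag coverage at its highest, which the authors averaged over all linked regions of a gene. Every deposited height of a gene with 1 region was a whole multiple, within 0.02 of a step, of 0.707 in male 1, 0.734 in male 2, 1 in female 1 and 0.822 in female 2. Heights were thus scaled per library, by a factor of unstated source, and the read depth is unknown. Other deposited values, such as distances, flags and numbers of regions, were used as the authors gave them. The height of a gene with 1 region equalled the called summit within 0.002 in 97.3% of 14350 cases. In all, 4740 genes (39.5%) share all their regions with another gene, and 11704 gene IDs matched the RefSeq table.

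Males were set against females with limma 3.58.1 (R 4.3.3, trend) on log2(height + 9); the added 9 is the rounded-up 5th percentile of nonzero heights. All genes entered, with Benjamini-Hochberg adjusted p under 0.05 as the threshold; this scale understates the change of low genes. The script was tested on simulated data. Python 3.11.15, pandas 2.3.3, numpy 2.4.6 and matplotlib 3.10.9 were used. The genes and lists were chosen with earlier results of these data known. Named were the 10 genes, the genes sharing their regions and, of each list, those called and up to 4 others with the smallest p. A gene that this rule names is not reported here. Alternatives covered pseudocounts, a filter, scaling, a replicate block, the variance trend, counting each set of regions a single time, and leaving out each library.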

Additional observations from a re-analysis of the deposited data

How the results depend on the processing

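Scaling and single libraries changed the calls, and the cause was not tested. The count of all genes called, 71, was 0 when the lowest genes (mean height up to the 25th percentile) were left out, 0 with centred libraries, 0 with quantile normalization, 416 without the variance trend and 0 to 6419 with a library left out (0 without male 2, 6419 without male 1). Of the 10 epithelial genes, 2 were called, against 0 with centred libraries and 0 with quantile normalization. With the filter, which kept 3 of them (Grhl1, Esrp1 and Rab25), 0 were called. Without the trend 6 were called, with Cldn3, Tfap2a, Mir200b and Mir200a in addition. The fit with 1 value per set of regions called 5, St14, Spint2, Tfap2a, Mir200b and Mir200a. This count is by gene, and the last 2 share a value. Without female 1, St14 had an adjusted p of 0.0551 in limma and Spint2 of 0.362; without male 2 they had 0.538 and 0.362. Their log2 differences stayed below 0, at -1.19 and -1.10 without female 1 and at -1.31 and -1.42 without male 2, against -1.36 and -1.37 with all libraries. The median of the 10 epithelial genes relative to all genes, -0.57, was -1.19 with a pseudocount of 1 and -0.18 with 36. It was -0.50 to -0.35 with a library left out. With the filter it was -0.021, over the 3 genes kept, which leave out St14 and Spint2. The further epithelial genes called, 1, were 0 with a pseudocount of 1, 2 with 36, 0 with the filter, 0 with centred libraries and 0 with quantile normalization. They were 3 without the trend and 3 with 1 value per set. These counts are by gene, and Mir429 repeats the value of Mir200b and Mir200a. The count of 0 became 2 for basal, 1 for skin and 1 for mesenchymal genes without the trend, and with a library left out ranged over 0 to 7, 0 to 5, 0 to 3 and, for milk genes, 0 to 2. The sign of Rab25 turned to 0.045 with centred libraries and 0.083 with quantile normalization, and that of Trp63 to 0.45 and 0.37; with a library left out Trp63 lay between -0.52 and 0.19. The other 8 genes kept their sign under every alternative that could be fitted for them. The count of 9 genes without overlap was 6 with either scaling.

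The libraries of the sexes share replicate numbers, but the labels do not say that the numbers pair them. Deviations of same-numbered libraries from their sex means had a correlation across genes of 0.0166. This value leaves out a shift common to all genes. Such a shift was present, since library 1 was higher than library 2 in both sexes. The mean height per gene was 40.9 against 32.5 in the females and 25.3 against 16.8 in the males. With the number as a replicate block, 6925 genes passed, with 8 of the 10 epithelial genes, 9 further epithelial, 7 basal, 4 milk, 6 skin and 4 mesenchymal genes.

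Read depth is unknown, male heights of 2 to 7 tags rest on little coverage, and 2 libraries per sex limit every comparison. Where 1 library of a sex was left, it was assumed to vary like the other sex.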

Other observations

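The miR-200 cluster has a second region farther upstream that is linked to no gene. It lies at chr4:156077824-156077952, centred 22138 bp before the start of Mir200b, and was called in both females and in neither male, with summit heights of 20 in female 1 and 14 in female 2. Its male heights are not known, because heights of uncalled libraries are given by gene.

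Some regions next to those of the epithelial genes have heights in all 4 libraries. The nearest region to that of Cldn3, linked to Stx1a, a gene of vesicle fusion, was called in female 1 only and was 12 and 7.34 high in the males, against 29 and 16.4 in the females (chr5:135023333-135023503). Beyond Grhl1, the nearest region, chr12:24642384-24642566, linked to Gm6969 and Klf11, was called in both females and no male, with 14.8 and 5.14 in the males and 34 and 20.6 in the females. The next, chr12:24650863-24651409, linked to Klf11, which encodes a zinc-finger factor, was called in all 4 libraries, with 29.7 and 15.4 in the males and 49 and 57.5 in the females. The female mean was 2.35 times the male mean at Stx1a, and 2.73 and 2.36 times at these regions beyond Grhl1, while a further Klf11 region, called in both males and no female, had 1.53 times. The female heights of that further region were obtained by subtraction from a gene's mean. The differences between neighbouring regions were not tested.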
